A study of Mus musculus with 12 samples.

Results

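The mitosis genes are a list of 60 mouse genes whose products carry a cell through division, from the kinases that start mitosis to the proteins that cut the cell in 2. They were chosen by name, and each gene was read at the probe set with its highest mean over the 12 arrays of the series. Of the 60 genes, 57 were measured in this way, out of 17996 genes named by the arrays' probe sets. Ccnb1, Aurkb and Aspm were not analysed here, and Sgol1 is given under its present symbol, Sgo1.

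The RNA came from mouse embryos, from somatic support cells of the gonad, the lineage that becomes Sertoli cells in a testis and granulosa cells in an ovary. All 4 groups were taken from 1 transgenic strain that carries FVB.Cg-Tg(Tyr)3412ARpw, a tyrosinase transgene, and Tg(Sry-EGFP)92EI, a reporter with EGFP under the control of Sry sequences. The groups were XX ovary at embryonic day 11.5 (E11.5), XY testis at E11.5, XX ovary at E12.5 and XY testis at E12.5, each with 3 pools of cells isolated by flow cytometry and 1 Affymetrix expression array per pool. No source used here gives the sort gate, the number of embryos in a pool or whether pools were from different litters. The p-values therefore rest on the spread between these pools, which may be partly technical. Values are log2 signals of a probe set, and a difference of 1 is a 2-fold change.

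Mitosis begins when cyclin-dependent kinase 1, bound to B-type cyclins, phosphorylates its substrates. The nucleus then opens, condensins compact the chromosomes, and kinetochores attach them to a spindle built by microtubule motors and Aurora and Polo kinases. The spindle checkpoint holds back the anaphase-promoting complex until every chromosome is attached, after which cohesin is cleaved and a contractile ring pinches the cell apart. Most of these genes are transcribed in G2 and mitosis and are low in resting cells, so their RNA is widely used as a mark of dividing cells. In the fetal gonad, proliferation of the supporting cells is known to differ between XX and XY around the time of sex determination. In RNA from pooled cells, fewer dividing cells and less mitotic RNA per dividing cell cannot be told apart.

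One array has to be known before the results. Pool 2 of XX E11.5 held the highest value of the 12 arrays for 36 of the 57 mitosis genes, and the highest value within its group for 55. Its median deviation from the genes' 12-array means was 1.23 log2 units, against -0.02 and -0.53 in the other pools of that group. Markers of other cells were high on the same array: the median deviation was 1.53 for 15 endothelial markers, 1.71 for 13 interstitial mesenchyme markers and 0.72 for 15 macrophage and leukocyte markers, whereas it was -0.72 for 14 supporting cell markers. The part of these cells in the level of the mitosis genes on that array was not tested, and the count of mitosis genes called in each comparison is given with and without it. At the other end, pool 1 of XX E12.5 held the lowest value for 42 of the 57 genes, with a median deviation of -1.45.

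The supporting cell label was read against its markers. Wt1, Nr5a1 and Gata4, transcription factor genes of gonadal somatic cells, read at least 11.53, 10.42 and 8.6 on every array, and 13 of the 14 supporting cell markers lay above 5.17 on every array. So did 13 of 15 endothelial, 12 of 15 macrophage and leukocyte, 12 of 13 mesenchyme and 6 of 12 germ cell markers, so this level does not separate supporting cells from the others. That value was the highest signal in XX of the 4 probe sets of Y-linked genes that separated the sexes by over 1 log2 unit, which read 3.33 to 5.17 there without their target. Of the mitosis genes only Kif18a had a group mean below 5.17, so its differences may be compressed by background. Array medians ran from 6.49 to 6.59.

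As a group, the mitosis genes were high and even in XY E12.5 and lowest in XX E12.5. The median deviation was 0.81, 0.8 and 0.81 in the pools of XY E12.5. It was -1.45, -0.37 and -0.61 in XX E12.5, and -0.38, -0.55 and 0.17 in XY E11.5. Of the 57 genes, 55, 51 and 56 lay above their 12-array mean in the XY E12.5 pools, against 3, 11 and 2 in those of XX E12.5. The spread between pools was wider than that of other genes: the median SD of a mitosis gene was 0.95 in XX E11.5, 0.49 in XY E11.5, 0.66 in XX E12.5 and 0.26 in XY E12.5, against 0.24, 0.2, 0.18 and 0.18 over all probe sets. Summed as linear signal, in units of 1000, the 57 genes gave 69.4 to 71.9 in XY E12.5 and 21.4 to 33.7 in XX E12.5.

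**Figure D1:**
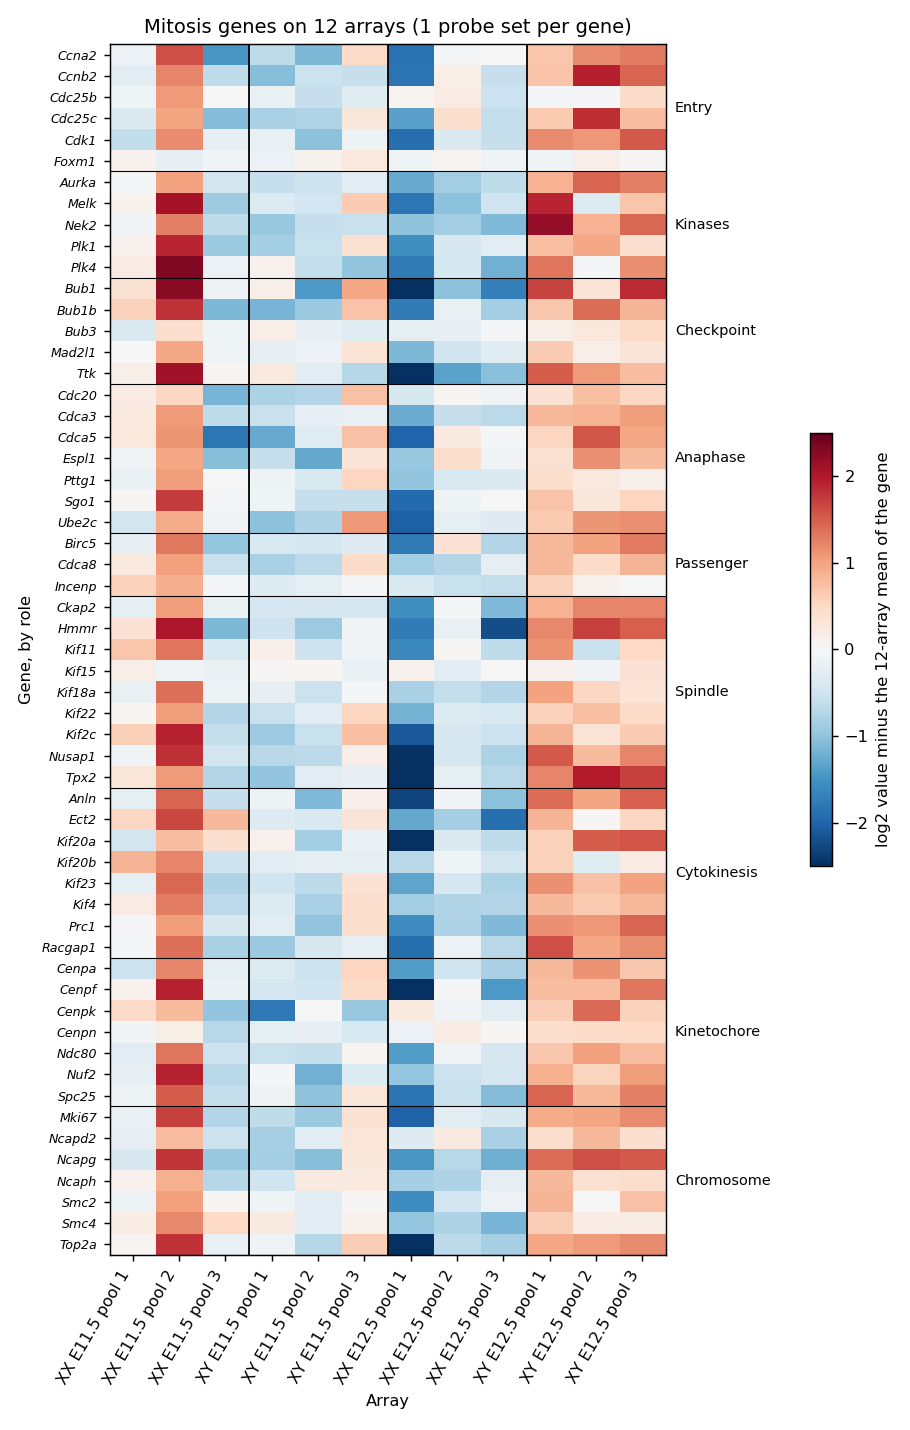
Log2 value minus the gene's own 12-array mean (colour) for 57 mitosis genes (rows, grouped by role) on 12 arrays (columns, 3 pools per group). The XY E12.5 columns and pool 2 of XX E11.5 are red in most rows, and pool 1 of XX E12.5 is blue, whereas Foxm1 and Kif15 stay pale throughout.

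The genes moved together from array to array. Across the 12 arrays, which share 3 pools of each group and any difference between pools, the correlation of a gene with the median of the other mitosis genes had a median of 0.91, and it exceeded 0.9 for 29 genes and 0.8 for 44. After subtraction of the group means the median was 0.84, so the genes also varied together between pools of 1 group. Spc25, Nusap1, Kif23, Ndc80 and Mki67 each had a correlation of 0.98. Foxm1 and Kif15 stood outside this pattern with 0.1 each, and were the members below 0.5. Each was read at 1 probe set, so a poorly responding probe set cannot be told apart from an unchanging gene. A dimmer Foxm1 probe set was highest in XX E11.5 pool 2, at 7.78. These correlations are descriptions, with no test. They include pool 2 of XX E11.5 and pool 1 of XX E12.5, the highest and lowest pools by median deviation, and were not repeated without them.

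**Figure D2:**
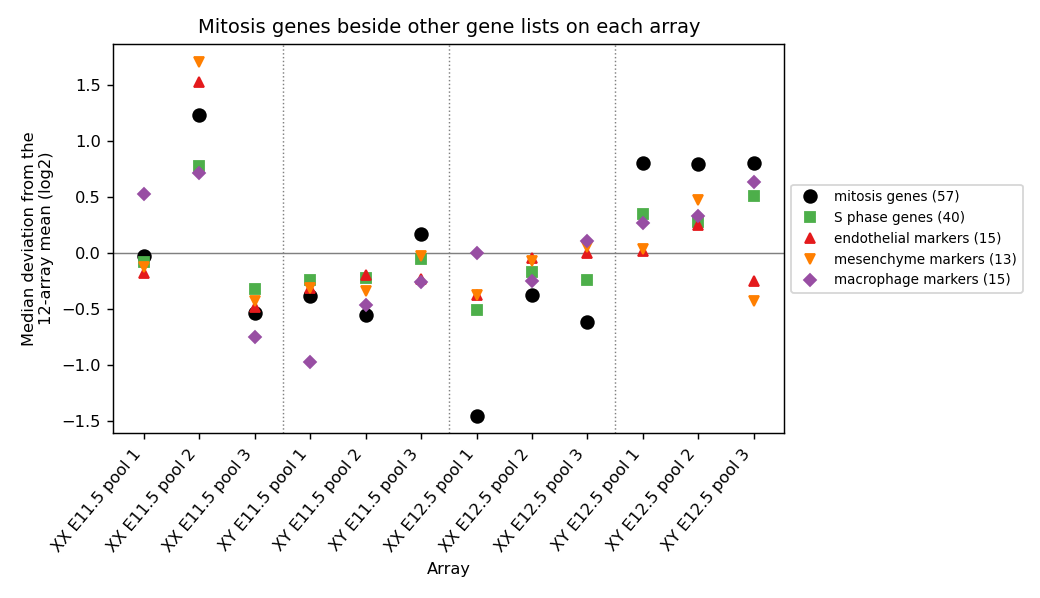
Median deviation from the 12-array mean in log2 units (vertical axis) of the mitosis genes and of 4 other gene lists on each of the 12 arrays (horizontal axis), with the number of genes in the key. The mitosis genes lie at 0.8 to 0.81 in XY E12.5 and at -1.45 to -0.37 in XX E12.5, and pool 2 of XX E11.5 is high for all 5 lists.

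Because the genes move together, their promoters are shown for the motifs known to tie genes to late cell cycle transcription. The cell cycle genes homology region (CHR), bound by the MuvB core of the DREAM and B-MYB complexes, has the core TTTGAA, and the CCAAT box is bound by NF-Y. RefSeq promoter windows on GRCm38.p6, from 250 bases before to 50 after an annotated start, were available for 50 of the 57 genes (55 windows). Ccna2, Cdc25c, Foxm1, Incenp, Kif20a, Smc4 and Tpx2 had no entry. Below are the 120 bases before the start of 5 genes that were higher in XY at E12.5 (Cdk1, Top2a, Ncapg, Prc1 and Nek2) and of 2 members with small differences that carry the same CHR core (Bub3 and Kif15), 5′ to 3′ on the strand of the gene, with CHR cores (TTTGAA or TTCAAA) and CCAAT boxes (CCAAT or ATTGG) in capitals.
Cdk1 (chr10:69352913-69353032, minus strand): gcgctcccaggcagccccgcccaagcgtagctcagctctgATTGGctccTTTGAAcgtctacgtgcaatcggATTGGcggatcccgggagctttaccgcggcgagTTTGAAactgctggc
Top2a (chr11:99024190-99024309, minus strand): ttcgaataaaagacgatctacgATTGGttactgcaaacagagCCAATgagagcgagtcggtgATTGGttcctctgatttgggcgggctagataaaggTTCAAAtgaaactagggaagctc
Ncapg (chr5:45669805-45669924, plus strand): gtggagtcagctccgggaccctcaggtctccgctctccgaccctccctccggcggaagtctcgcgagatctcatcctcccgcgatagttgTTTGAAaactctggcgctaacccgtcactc
Prc1 (chr7:80294356-80294475, plus strand): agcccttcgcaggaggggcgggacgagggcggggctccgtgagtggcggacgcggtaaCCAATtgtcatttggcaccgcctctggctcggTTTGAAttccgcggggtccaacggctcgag
Nek2 (chr1:191821353-191821472, plus strand): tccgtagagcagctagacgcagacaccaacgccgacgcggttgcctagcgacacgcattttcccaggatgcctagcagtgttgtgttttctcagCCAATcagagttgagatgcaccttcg
Bub3 (chr7:131560250-131560369, plus strand): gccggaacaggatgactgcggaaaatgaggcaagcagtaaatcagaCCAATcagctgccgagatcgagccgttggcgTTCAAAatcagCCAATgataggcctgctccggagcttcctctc
Kif15 (chr9:122950961-122951080, plus strand): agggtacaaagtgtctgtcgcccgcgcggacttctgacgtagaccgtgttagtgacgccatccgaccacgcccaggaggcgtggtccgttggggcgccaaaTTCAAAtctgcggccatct

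In the promoter of Cdk1 a CHR core begins 15 bases before the start and another 71 bases before it, with CCAAT boxes at 48 and 80 bases. In Top2a the core lies 23 bases before the start below CCAAT boxes at 58, 78 and 98 bases, and in Prc1 the core at 30 bases has a CCAAT box at 62. Nek2 has a CCAAT box at 26 bases and no core in the stretch shown. Ncapg has a core at 30 bases and no CCAAT box in that stretch, though its window holds 1 further upstream. The core lies 19 bases before the start in Kif15 and 43 bases before it in Bub3.

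Over all windows of the 57 genes, counting both strands and any overlap between matches, 39 of 55 (70.9%) held a CHR core, against 17.9% of the 32851 windows of all genes. Within 50 bases of the start the shares were 61.8% and 4.94%. A CCAAT box was present in 40 of 55 windows (72.7%), against 37.4% of all, and both motifs were present in 33 (60%), against 6.95%. The 64 further mitotic genes had a CHR core in 41.8% of windows and the 40 genes of DNA replication in 17.9%. Members with and without the core overlapped in their values: the E12.5 difference of the 36 genes with a core had a median of 1.79 (14 called) and a range of 0.19 to 2.86, and that of the 14 genes without one a median of 1.4 (3 called) and a range of 0.21 to 3.32. The 35 genes with a CCAAT box had a median of 1.81 (15 called) and a range of 0.21 to 3.32. The 15 genes without one had a median of 1.47 (2 called) and a range of 0.19 to 2.43. Neither split was tested. A match of letters is a description of the sequence and says nothing of binding.

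The first question was whether the mitosis genes differ between XX and XY support cells after sex determination has begun. At E12.5 all 57 had a higher mean in XY than in XX, and 20 passed the test (limma, adjusted p under 0.05 over 44238 probe sets), all of them higher in XY, where 3.92% of all probe sets were called higher and 3.81% lower. That is 35.1% of the mitosis genes. The median difference was 1.69, against -0.004 over all probe sets, and ranged from 0.09 (Foxm1) to 3.32 (Bub1). The 3 XY pools all lay above the 3 XX pools for 51 of the 57 genes, as they did for 14.2% of all probe sets. An unadjusted p under 0.05 was reached by 46, and by 8867 of the 44238 probe sets.

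**Figure D3:**
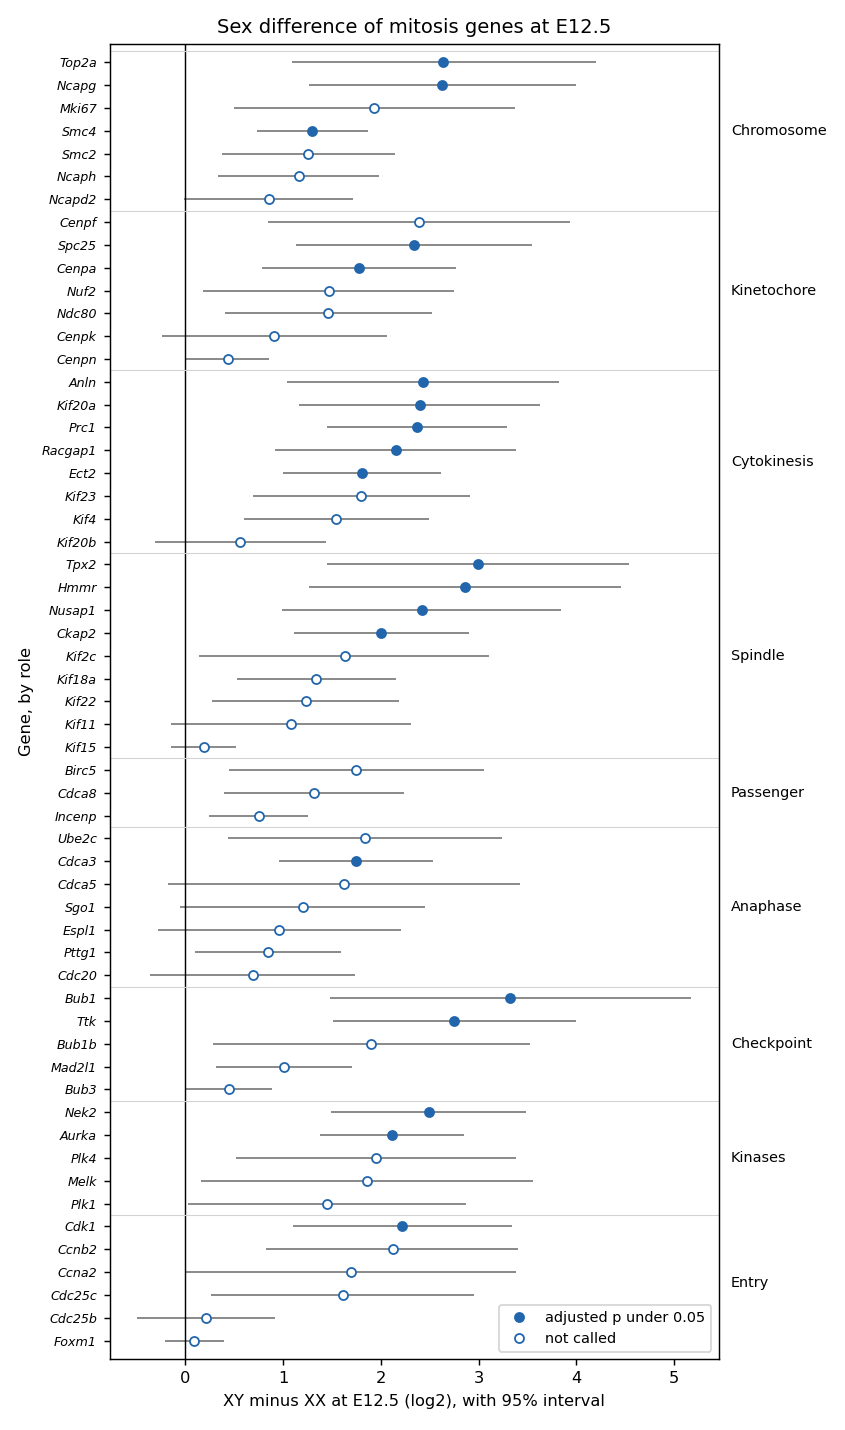
Difference of XY minus XX at E12.5 in log2 units (horizontal axis) with its 95% interval from limma for each of 57 mitosis genes, ordered by role and size. All 57 points lie right of 0, the 20 filled points passed the test, and the intervals of the largest differences, such as Bub1 at 3.32, are also among the widest.

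The genes of mitotic entry included the kinase itself. Cdk1 read 7.13, 8.65 and 8.44 in XX E12.5 and 10.21, 10.11 and 10.56 in XY E12.5. The groups did not overlap, and Cdk1 was 4.67-fold higher in XY (95% interval 2.15 to 10.1; adjusted p = 0.024). Ccnb2, a B-type cyclin that activates Cdk1, read 7.14, 9.16 and 8.42 against 9.7, 10.93 and 10.45, a difference of 2.12 (0.83 to 3.4; adjusted p = 0.054) that did not pass. Ccna2 and the phosphatase gene Cdc25c also had XY pools above all XX pools, with differences of 1.69 and 1.61 that did not pass. Cdc25b (0.21) and Foxm1 did not. Foxm1, the transcription factor that drives many genes of this list, read 8.28, 8.46 and 8.28 in XX and 8.31, 8.55 and 8.43 in XY, a difference of 0.09 (-0.21 to 0.4). The interval excludes a change of the size seen at Cdk1, and the other 3 Foxm1 probe sets differed by 0.13, -0.12 and 0.15.

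Among the mitotic kinases Aurka and Nek2 were higher in XY. Aurka, the Aurora kinase of centrosomes and spindle poles, read 6.19, 6.59 and 6.82 in XX E12.5 and 8.32, 8.91 and 8.71 in XY E12.5. The gap between the groups was wider than the spread within either, and Aurka was 4.33-fold higher (2.61 to 7.19; adjusted p = 0.0035), the smallest p of the list. Nek2, a kinase that separates centrosomes, read 6.6, 6.74 and 6.5 against 9.8, 8.47 and 9.03, and was 5.61-fold higher (2.82 to 11.2; adjusted p = 0.0075). The SD of the 3 Nek2 values was 0.12 in XX and 0.67 in XY, so the spread came from XY. Plk4, Melk and Plk1 had differences of 1.95, 1.86 and 1.45 with no overlap between groups, and did not pass. Plk1, the Polo kinase, was the least changed of the 5 by p (adjusted p = 0.24).

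Of the 5 spindle checkpoint genes, Bub1 and Ttk were higher in XY. Bub1, a kinase that recruits checkpoint proteins to kinetochores, read 5.0, 7.31 and 6.62 in XX E12.5 and 10.03, 8.67 and 10.2 in XY E12.5. It had the largest difference of the list, 10-fold (2.78 to 36; adjusted p = 0.037), with an SD of 1.19 in XX and 0.84 in XY. Ttk, the kinase also called Mps1 that starts checkpoint signalling, read 5.13, 6.31 and 6.61 against 9.16, 8.72 and 8.42, 6.73-fold higher (2.85 to 15.9; adjusted p = 0.014). In both genes the lowest XX value, that of pool 1, lay below 5.17, the highest signal without a target given above, so their folds at E12.5 and in XX over the day may be compressed by background. Bub1b and Mad2l1, inhibitors of the anaphase-promoting complex, differed by 1.9 and 1.01 without passing. Bub3, their partner, was the least changed at its brightest probe set with 0.45 (adjusted p = 0.25), but a dimmer probe set of the gene differed by 1.18 (adjusted p = 0.043).

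The genes of anaphase and of the anaphase-promoting complex gave 1 call of 7. Cdca3, an adaptor for degradation of the Cdk1 inhibitor Wee1, read 6.6, 7.28 and 7.17 in XX and 8.68, 8.71 and 8.89 in XY, 3.35-fold higher (1.94 to 5.78; adjusted p = 0.014). Ube2c, the ubiquitin-conjugating enzyme of the complex, read 5.87, 7.69 and 7.59 against 8.57, 9.02 and 9.06, a difference of 1.84 (adjusted p = 0.12) in which the first XX pool stood lowest. Cdca5 (sororin, which protects cohesin), Sgo1 (shugoshin, likewise), Espl1 (separase, which cuts cohesin) and Pttg1 (securin, its inhibitor) differed by 0.85 to 1.62 and did not pass. Cdc20, the activator of the complex, was already bright in both sexes, with 11.09, 11.54 and 11.41 against 11.85, 12.24 and 12.01, a difference of 0.69 (adjusted p = 0.49).

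None of the 3 measured genes of the chromosomal passenger complex, the scaffold of Aurora B at centromeres and midzone, passed the test on all 12 arrays, and all 3 passed without XX E11.5 pool 2. Incenp read 11.38, 11.2 and 11.16 in XX and 12.35, 11.88 and 11.76 in XY (difference 0.75; adjusted p = 0.083). Cdca8, borealin, read 10.65, 10.78 and 11.27 against 12.32, 11.97 and 12.36 (1.32; adjusted p = 0.09). Birc5, survivin, differed by 1.75 (adjusted p = 0.11), with an SD of 1.07 in XX. The XY pools lay above the XX pools for all 3.

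Spindle genes gave 4 calls of 9. Tpx2, which activates Aurora A on the spindle, read 6.24, 9.17 and 8.71 in XX and 10.62, 11.38 and 11.1 in XY, 7.96-fold higher (2.73 to 23.3; adjusted p = 0.027). Hmmr, a microtubule-binding receptor of hyaluronan, read 6.44, 8.0 and 5.97 against 9.4, 9.91 and 9.68, 7.27-fold higher (2.41 to 21.9; adjusted p = 0.037). Ckap2, a microtubule-binding protein of the spindle, read 6.29, 7.79 and 6.73 against 8.7, 9.06 and 9.06, 4.01-fold higher (2.16 to 7.45; adjusted p = 0.014). In these 3 genes XY was tight and the XX pools were scattered over more than 1 log2 unit. Nusap1, which bundles spindle microtubules, read 6.37, 8.42 and 8.05 against 10.38, 9.64 and 10.07, 5.34-fold higher (1.99 to 14.3; adjusted p = 0.047). The kinesin genes of this group did not pass. Kif18a, Kif22, Kif2c and Kif11 differed by 1.34, 1.23, 1.63 and 1.08, and Kif15 by 0.19 (-0.15 to 0.52; adjusted p = 0.59), with all its values between 6.26 and 6.88.

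Of the 8 cytokinesis genes 5 were called, and 7 without XX E11.5 pool 2. Prc1, which bundles the antiparallel microtubules of the midzone, read 7.85, 8.65 and 8.32 in XX and 10.56, 10.51 and 10.87 in XY, 5.17-fold higher (2.73 to 9.79; adjusted p = 0.0066). Its second probe set was called too, with a difference of 2.76 (adjusted p = 0.019). Ect2, the exchange factor that switches on RhoA at the division site, read 6.22, 6.64 and 5.6 against 8.35, 7.53 and 8.02, 3.51-fold higher (2 to 6.16; adjusted p = 0.014). Kif20a, a midzone kinesin, read 5.68, 7.81 and 7.54 against 8.76, 9.7 and 9.75, 5.27-fold higher (2.24 to 12.4; adjusted p = 0.026). Neither gene overlapped between the sexes. Anln, the actin-binding protein of the contractile ring, read 6.7, 8.94 and 7.98 against 10.4, 10 and 10.5, 5.39-fold higher (2.05 to 14.2; adjusted p = 0.042). Racgap1, the partner of Ect2 in the centralspindlin complex, was 4.43-fold higher (1.89 to 10.4; adjusted p = 0.041). The centralspindlin kinesin Kif23 (1.8; adjusted p = 0.057) and the chromokinesin Kif4 (1.54; adjusted p = 0.056) did not pass, and Kif20b was the least changed with 0.56 (adjusted p = 0.5).

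At centromeres and kinetochores 2 of 7 genes passed. Spc25, a subunit of the NDC80 complex that grips microtubules, read 7.91, 9.18 and 8.66 in XX and 11.2, 10.58 and 11 in XY, 5.07-fold higher (2.19 to 11.7; adjusted p = 0.027). Cenpa, the histone H3 variant of centromeres, read 7.95, 8.84 and 8.53 against 10.16, 10.46 and 10.03, 3.43-fold higher (1.72 to 6.84; adjusted p = 0.037). Both had all XY pools above all XX pools, as had the other 5. Ndc80 and Nuf2, of the same complex as Spc25, differed by 1.46 and 1.47, and Cenpf by 2.39 (adjusted p = 0.067), without passing. Cenpn differed by 0.44, and Cenpk had the largest p of the group (0.91; adjusted p = 0.38).

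Chromosome structure genes gave 3 calls of 7. Smc4, the ATPase core shared by both condensins, read 10.15, 10.35 and 9.95 in XX and 11.74, 11.3 and 11.3 in XY. The SD was 0.2 and 0.25, and Smc4 was 2.46-fold higher (1.66 to 3.64; adjusted p = 0.012). Ncapg, a subunit of condensin I, read 5.66, 6.41 and 5.89 against 8.51, 8.71 and 8.64, 6.2-fold higher (2.41 to 15.9; adjusted p = 0.027). Top2a, the topoisomerase that untangles sister chromatids, read 7.2, 9.77 and 9.58 against 11.39, 11.48 and 11.6, 6.25-fold higher (2.12 to 18.4; adjusted p = 0.047). The first XX pool lay over 2 log2 units below the other pools of its group at Top2a, which gave an SD of 1.43. Mki67, the classical proliferation antigen, read 8.18, 9.92 and 9.8 against 11.13, 11.19 and 11.38, a difference of 1.93 (adjusted p = 0.11) that did not pass. Smc2 and Ncaph differed by 1.26 and 1.16, and Ncapd2 by 0.86 (adjusted p = 0.25).

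**Figure D4:**
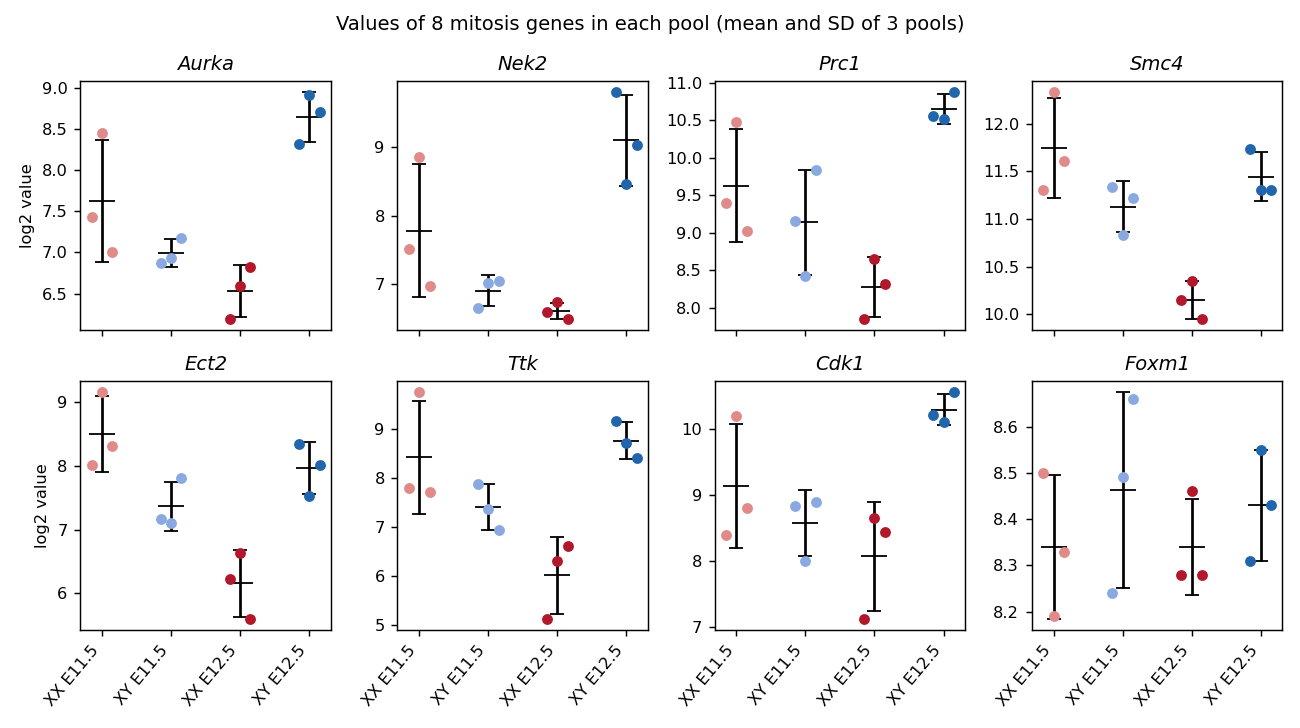
Log2 values (vertical axis) of 8 mitosis genes in each pool of the 4 groups (points), with the mean and SD of 3 pools (bars); each panel has its own scale. For Aurka, Nek2, Prc1, Smc4, Ect2, Ttk and Cdk1 the XY E12.5 points all lie above the XX E12.5 points, whereas the panel of Foxm1 spans 8.19 to 8.66.

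How firmly a call stood depended on the pools. Aurka, Nek2 and Prc1 kept their call at E12.5 without any 1 of the 12 arrays and under every other setting tried. Smc4 lost its call without XX E12.5 pool 3, and Ttk without XY E12.5 pool 1. Ect2 lost it without either of those arrays, Ckap2 without XX E12.5 pool 3 or XY E12.5 pool 3, and Cdca3 without XX E12.5 pool 1 or XY E12.5 pool 3. The call of Tpx2 ended without each XY E12.5 pool in turn, and that of Kif20a without XX E12.5 pool 1 or pools 2 or 3 of XY E12.5. Cenpa and Ncapg lost theirs without each of the 6 E12.5 arrays, Cdk1 without each of them but XX pool 2, and Spc25 without pools 1 or 3 of either sex. The calls of Bub1, Hmmr, Anln, Racgap1, Nusap1 and Top2a, with adjusted p-values from 0.037 to 0.047, ended without 5, 8, 8, 9, 10 and 10 of the 12 arrays, among them pools 1 and 3 of XX E12.5 and of XY E12.5 in each case.

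The count moved with them. It was 8 without XX E12.5 pool 1, 7 without XX E12.5 pool 3, and 7, 10 and 6 without XY E12.5 pools 1, 2 and 3, while the median difference stayed between 1.3 and 1.98 without any 1 array. Without XX E11.5 pool 2, which is not part of this contrast but enters the shared spread, 34 genes were called, where 4.42% of all probe sets were called higher. The 34 held all 20 named above and Kif18a, Kif23, Kif4, Nuf2, Ndc80, Ccnb2, Plk4, Mad2l1, Cenpf, Ncaph, Mki67, Birc5, Incenp and Cdca8.

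Probe sets of 1 gene did not always move together. Of the 134 probe sets of the 57 genes, 28 were called higher in XY at E12.5, and none lower, in 23 genes. The 3 further genes were Bub3, Ccna2 and Ncaph, each at a dimmer probe set. A difference below 0 was seen at 13 probe sets. All probe sets were called for Prc1 (2 of 2) and for Cdk1, Ect2, Ckap2 and Kif20a, which have 1 each. Tpx2 was called at 3 of 4, Smc4 and Racgap1 at 2 of 3, Aurka at 1 of 2 and Nek2 at 1 of 4. The second Aurka probe set was dim, at 4.45 to 4.9 on all arrays, inside the range of signal without a target.

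Between E11.5 and E12.5 in XX cells, 4 mitosis genes fell and none rose. That is 7.02% of the 57 genes, where 1.43% of all probe sets were called lower and 1.69% higher. Tested at 1 probe set per gene, 325 of 17996 genes were called lower. The median change was -1.06, against 0.065 over all probe sets, and 55 of the 57 changes were below 0. For 15 genes all 3 XX E12.5 pools lay below all 3 XX E11.5 pools, as for 9.93% of all probe sets.

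Ect2 read 8.01, 9.16 and 8.31 in the 3 XX E11.5 pools and fell 5.06-fold by E12.5 (2.89 to 8.87; adjusted p = 0.014). Smc4 read 11.31, 12.33 and 11.61 at E11.5 and fell 3.04-fold (2.05 to 4.5; adjusted p = 0.015), and all 3 of its probe sets were called. Ttk read 7.81, 9.76 and 7.72 at E11.5 and fell 5.32-fold (2.26 to 12.5; adjusted p = 0.049), and Incenp read 12.34, 12.67 and 11.74 and fell 2-fold (1.4 to 2.85; adjusted p = 0.048). Pool 2 was the highest of the 3 in each of these genes. Bub1 had the largest change of the list, -2.87, and did not pass (adjusted p = 0.086).

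Without XX E11.5 pool 2 the median change in XX was -0.57, and 2 genes were called lower, where 0.717% of all probe sets were: Ect2 (-2.01; adjusted p = 0.034) and Smc4 (-1.31; adjusted p = 0.026). Their calls also ended without XX E12.5 pool 3, where no mitosis gene was called. The call of Incenp ended without 10 arrays and that of Ttk without 11, all but XX E11.5 pool 1. The count was also 2 when XX E12.5 pool 1 or 2, any of the XY E11.5 pools, or XY E12.5 pool 2 or 3 was left out. Among 13 mesenchyme markers Pdgfra (4-fold) and Nr2f2 (3.23-fold) fell, and none was called without XX E11.5 pool 2. The median change of the 13 was -0.26, with 10 below 0. It was 0.14 without that pool, with 9 above 0. The median was -0.3 for 15 endothelial markers and -0.34 for 15 macrophage and leukocyte markers. Without that pool these were 0.21 and -0.1. The part of these cells in the result was not tested.

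In XY cells 2 mitosis genes rose over the same day, 3.51% of the 57, where 3.18% of all probe sets were called higher and 2.98% lower. Tested at 1 probe set per gene, 924 of 17996 genes were called higher. The share of mitosis genes called was thus near the background. The median change was 1.22, against 0.016 over all probe sets, and 56 of the 57 changes were above 0. All 3 XY E12.5 pools lay above all 3 XY E11.5 pools for 38 genes, as for 13.8% of all probe sets. Aurka read 6.87, 6.93 and 7.18 in XY E11.5 and rose 3.15-fold by E12.5 (1.89 to 5.23; adjusted p = 0.017). Nek2 read 6.65, 7.02 and 7.05 and rose 4.57-fold (2.3 to 9.09; adjusted p = 0.019). Both were low and even at E11.5 and high in all 3 pools a day later. The call of Aurka ended without XY E11.5 pool 1 or XY E12.5 pools 2 or 3, and that of Nek2 without pools 1 or 3 of XY at either day. Of the 134 probe sets of the 57 genes, 5 were called higher in XY over the day and 1 lower, and in XX 8 were called lower. A dimmer Smc2 probe set was called lower in XY (-3.46; adjusted p = 0.0099) and in XX (-3.03; adjusted p = 0.032). The brightest Smc2 probe set changed by 0.66 in XY and -1.05 in XX, and passed in neither.

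Genes just short of the threshold were Cenpn, a centromere protein gene (0.74; adjusted p = 0.051), Ckap2 (1.53; adjusted p = 0.053), Prc1 (1.5; adjusted p = 0.062) and Ccnb2 (2.1; adjusted p = 0.063), none of which passed. Without XX E11.5 pool 2, which enters only through the shared spread, 13 genes were called, where 3.73% of all probe sets were called higher: Aurka, Nek2, Ncapg, Cdca3, Ckap2, Kif18a, Nuf2, Prc1, Cenpn, Cdk1, Ccnb2, Racgap1 and Kif23. The count was 5 when XX E11.5 pool 3 or XX E12.5 pool 1 was left out. It was 0 in the absence of XY E11.5 pool 1 or of XY E12.5 pool 3, and 1 in that of XY E11.5 pool 3 or of either remaining XY E12.5 pool. Macrophage and leukocyte markers moved the same way in XY: 2 of 15 rose (Ctss and Cd68), with a median change of 1.07, and their summed linear signal, in units of 1000, was 1.41 to 2.92 in XY E11.5 and 5.01 to 7.37 in XY E12.5. The mesenchyme signal was 6.86 to 10.7 and 11.7 to 14.4 in the same groups, whereas the median change of the 13 mesenchyme markers was 0.35. Among them Ptch1 was called higher (3.67-fold) and Nr2f2 lower (4.61-fold). The part of these cells in the change of the mitosis genes was not tested.

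At E11.5 no mitosis gene differed between the sexes (limma, 0 of 57 at an adjusted p under 0.05 and 3 at an unadjusted p under 0.05), where 0.0543% of all probe sets were called higher and 0.0136% lower. The unadjusted threshold was reached by 3012 of all 44238 probe sets. The median of XY minus XX was -0.58, against 0.05 over all probe sets, and 55 differences were below 0. Ect2 had the smallest p, with 8.01, 9.16 and 8.31 in XX and 7.17, 7.11 and 7.81 in XY (-1.13; adjusted p = 0.59). Without XX E11.5 pool 2 again 0 of 57 were called by limma, the median was -0.07 and 24 of the 57 differences were above 0, so the shift towards XX came with that array. Over the same 2 groups the summed endothelial signal, in units of 1000, was 8.18 in that pool and 1.84 to 2.65 in the other 5 pools of E11.5, and the macrophage signal was 11.6 against 1.41 to 7.84.

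**Figure D5:**
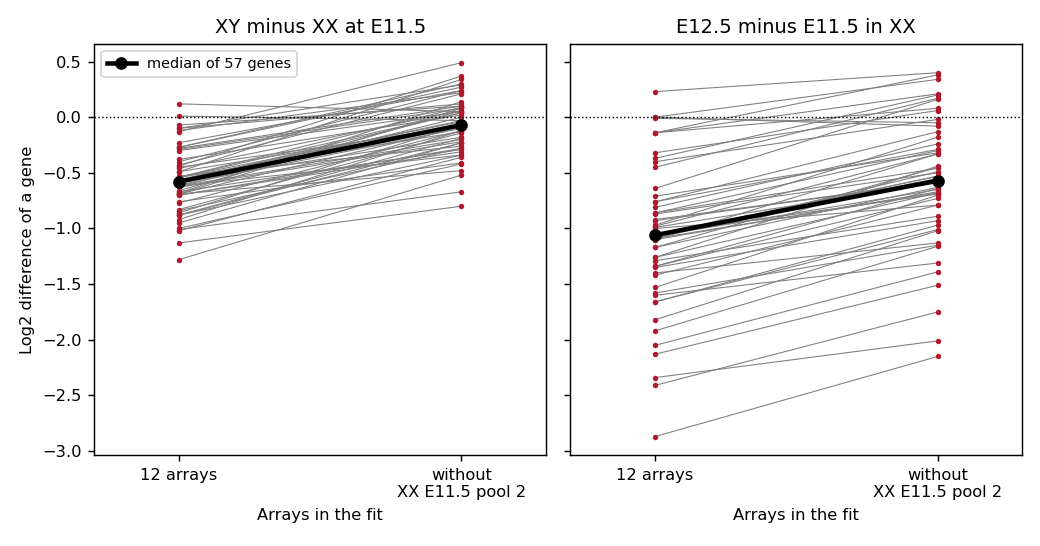
Log2 difference of each of 57 mitosis genes (points joined by lines) and their median (black) for XY minus XX at E11.5 and for E12.5 minus E11.5 in XX, with all 12 arrays and without pool 2 of XX E11.5. The medians move from -0.58 to -0.07 and from -1.06 to -0.57.

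The sex difference at E12.5 was tested against that at E11.5 in the same fit, which uses all 4 groups and so shares its arrays with the comparisons above. It was larger for 6 of the 57 genes (10.5%), where 0.796% of all probe sets were called in that direction and 0.954% in the other, and smaller for none. Tested at 1 probe set per gene, it was called larger for 423 of 17996 genes. The median of the mitosis genes was 2.2, against -0.063 over all probe sets, and 1.58 without XX E11.5 pool 2. The called genes were Ttk (3.77, 95% interval 2.02 to 5.52; adjusted p = 0.044), Nek2 (3.36, 1.96 to 4.77; adjusted p = 0.028), Ect2 (2.94, 1.8 to 4.09; adjusted p = 0.02), Prc1 (2.86, 1.55 to 4.16; adjusted p = 0.041), Aurka (2.75, 1.71 to 3.78; adjusted p = 0.017) and Smc4 (1.92, 1.12 to 2.72; adjusted p = 0.028). Ect2, Smc4 and Ttk fell in XX over the day and their change in XY did not pass, whereas Aurka and Nek2 rose in XY and their change in XX did not pass. Prc1 passed in neither sex alone. Markers of other cells moved the same way: the difference was above 0 for 15 of 15 macrophage and leukocyte markers (median 1.19, and 1.07 without XX E11.5 pool 2), 14 of 15 endothelial markers (median 0.61, and 0.09 without it) and 10 of 13 mesenchyme markers (median 0.96, and 0.26 without it). Of these only Ptch1, a mesenchyme marker, was called, and none without that pool. Their part in the result was not tested.

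Without XX E11.5 pool 2 the interaction again had 6 calls, where 0.685% of all probe sets were called in that direction, of which Aurka (2.34; adjusted p = 0.01), Nek2, Smc4, Ect2 and Ttk were the same genes and Kif18a took the place of Prc1 (2.43; adjusted p = 0.058). Leaving out XY E11.5 pool 2 ended all 6, with an adjusted p of 0.051 for Aurka. Omitting XX E11.5 pool 3 gave 12 calls. Omitting XY E11.5 pool 3 or XX E12.5 pool 2 gave 3, XX E12.5 pool 1 gave 2, and XX E12.5 pool 3 or XY E12.5 pools 1 or 3 gave 1.

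Related genes were read from lists given with the mitosis genes. Of all probe sets, 3.92% were called higher in XY at E12.5 and 3.81% lower, and 4.42% higher without XX E11.5 pool 2. Of 64 further mitotic genes 16 were higher in XY at E12.5 and none lower, with a median of 0.68, and 24 were higher without XX E11.5 pool 2. The smallest p-values were those of Esco2, an acetyltransferase that locks cohesin in S phase (9.02-fold; adjusted p = 8.8e-05), Fam83d, a spindle protein gene (2.68-fold), Zwilch, a checkpoint gene of the kinetochore (4.13-fold), and Cenpi, of the inner kinetochore (2.43-fold). Of 40 genes of DNA replication and S phase 4 were higher, among them Gmnn (geminin, 3.45-fold), Mcm10 (2.8-fold) and Fen1 (2.44-fold), and Orc1 was 4.18-fold lower. Without XX E11.5 pool 2, which enters only through the shared spread, 14 of the 40 were higher and 1 lower. Their median was 0.6 and their median deviation was 0.28 to 0.51 in XY E12.5 and -0.51 to -0.17 in XX E12.5. The 15 core subunits of the anaphase-promoting complex, which are not transcribed in a mitotic wave, had a median of -0.07 with 1 call (Anapc15, 1.92-fold higher). Of 10 cohesin genes Rad21 (2.69-fold) and Smc3 (1.88-fold) were higher and Wapl, which releases cohesin, was 1.87-fold lower.

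Among 22 regulators of mitotic promoters 2 (9.09%) were higher in XY at E12.5, where 3.92% of all probe sets were called higher and 3.81% lower. Mybl1, a MYB family transcription factor gene, was 9.96-fold higher (adjusted p = 3.5e-05) and E2f3 was 2.15-fold higher (adjusted p = 0.022), with a median of 0.37 for the list. Mybl1 also rose 6.04-fold over the day in XY. The CDK inhibitors ran the other way in 3 of 7 genes. In XY at E12.5 Cdkn1a was 5.67-fold, Cdkn1c 5.18-fold and Cdkn1b 2.75-fold lower. The summed signal of the 7, in units of 1000, was 1.92 to 2.61 in XY E12.5 and 6.98 to 11.6 on the other 9 arrays. This sum weighs the brightest genes most. The median difference of the 7 at E12.5 was -0.16, with 3 genes higher in XY and 4 lower. Their median deviation was -0.06 to 0.03 in XY E12.5 and 0.17 to 0.33 in XX E12.5. Cdkn1c fell 5.27-fold in XY over the day, and Cdkn1b rose 2-fold in XX, where no CDK inhibitor was called without XX E11.5 pool 2.

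Markers of other cell types were compared over the same E12.5 arrays, where 3.92% of all probe sets were called higher and 3.81% lower. No endothelial marker (0 of 15, median 0.07), macrophage or leukocyte marker (0 of 15, median 0.41), germ cell marker (0 of 12, median -0.05) or mesonephric marker (0 of 6, median -0.26) was called on all 12 arrays, and 1 macrophage or leukocyte marker was called higher without XX E11.5 pool 2. Calls were made for Ptch1 and Pdgfra among 13 mesenchyme markers (median 0.16), Klf1 among 8 erythroid markers (median 0.12) and Hsd17b3 among 5 steroidogenic markers (median 0.82), all higher in XY. In units of 1000, the summed macrophage signal was 3.96 to 4.25 in XX E12.5 and 5.01 to 7.37 in XY E12.5, and the mesenchyme signal was 4.16 to 6.92 against 11.7 to 14.4. The endothelial signal overlapped, with 1.98 to 2.72 against 2.11 to 3.38, as did the germ cell signal, with 1.13 to 1.65 against 0.977 to 1.28. A linear sum weighs bright genes most, such as Ptch1, which read up to 13.09. The median deviation of the 13 mesenchyme markers overlapped, at -0.37 to 0.06 in XX E12.5 and -0.43 to 0.48 in XY E12.5. Of these markers 9 were higher in XY and 4 lower. Of the germ cell markers, Ddx4 read 3.33 to 6.63 and Dazl 4.09 to 6.9 over the arrays. Others reached higher values, such as Utf1 (7.83 to 9.31) and Kit (6.43 to 8.08). The part of these cells in the sex difference of the mitosis genes was not tested. Of the supporting cell markers 11 of 14 differed at E12.5, 4 higher in XY (Sox9, Amh, Dhh and Fgf9) and 7 lower (Lhx9, Fst, Emx2, Rspo1, Foxl2, Wnt4 and Nr0b1).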

How the data were processed

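The authors deposited 1 table of log-scale values per probe set and array, taken here as log2. Per the labels' protocols, RNA was isolated with a PicoPure kit and amplified in 2 rounds with a TargetAmp kit before biotin labelling. How probe sets were summarised and normalized, and the log base, are not given in the sources used: the largest value, 14.45, allows a base of at most 2.15 for a 16-bit scanner. Depth does not apply to arrays, and 3 arrays per group limit the precision. Of 45037 probe sets, 798 were blank on every array and 1 on some, and 44238 were tested. Symbols came from the platform annotation, updated through Entrez identifiers (34126 matched): 34328 probe sets had 1 symbol, 850 several and 9060 none.

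The 4 group means were fitted over all 12 arrays by lmFit and eBayes of limma 3.58.1 (R 4.3.3), with 8 residual and 2.11 prior degrees of freedom. A call means a two-sided Benjamini-Hochberg adjusted p under 0.05 over all probe sets tested, and all p-values are from limma. Folds are 2 raised to the difference. The fit was tested on simulated data drawn independently for each probe set. Such data lack the shared variation of the mitosis genes between pools. The mitosis genes and all lists were chosen with earlier results of these data known, so they are not independent evidence. Full statistics go to the called genes of a comparison (the 12 with the largest difference where more were called) and to the 2 smallest p-values of each role at E12.5; the largest p of each role is named too. Racgap1, Kif18a, Mki67, other members given by their difference alone, and the dimmer probe sets were chosen after their values were seen. Alternatives were array quality weights, quantile normalization, a block for the pool number, a filter to brighter probe sets, a mean-dependent variance prior, centring on the median, a fit of only the arrays compared, 1 probe set or the average probe set per gene, and leaving out each array. Figures used matplotlib 3.10.9 in Python 3.11.15.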

Additional observations from a re-analysis of the deposited data

Results flagged for a closer look

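For 6 mitosis genes the difference of XY minus XX at E12.5 exceeded that at E11.5 by the test of the difference itself (limma interaction, adjusted p under 0.05). The log2 differences between the 2 sex differences were 3.77 for Ttk, 3.36 for Nek2, 2.94 for Ect2, 2.86 for Prc1, 2.75 for Aurka and 1.92 for Smc4. No gene of the list was called in the opposite direction. With the pool number as a replicate block the test was no longer passed by Ttk, Nek2, Ect2, Prc1 and Smc4 (adjusted p from 0.053 to 0.081, limma), and Aurka still passed.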

How the results depend on the processing

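The median difference of the mitosis genes kept its sign in all 5 comparisons under every setting, and none of the 32 calls of single genes changed sign: their recomputed tests passed in 456 instances and no longer passed in 178. Of the counts of mitosis genes, that at E12.5 between the sexes was 32 with array quality weights. The count in XX over the day was 0 with the compared arrays alone. In XY over the day it was 10 among brighter probe sets, 9 with array quality weights, 13 with the compared arrays alone and 7 with averaged probe sets, and in the interaction it was 11 among brighter probe sets and 10 with averaged probe sets. Over all probe sets, 1378 were called in XX over the day, against 2405 with weights and 624 with the compared arrays alone. With 1 probe set per gene, which tests 17996 in place of 44238, the count of 2726 in XY was 1430 and that of 30 at E11.5 was 12. The latter was also 12 with the compared arrays alone, and that of 3416 at E12.5 was 5794 with weights.

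Leaving out 1 array gave 6 to 34 mitosis genes at E12.5, 0 to 5 in XX over the day, 0 to 13 in XY and 0 to 12 in the interaction. Over all probe sets it gave 23 to 57 at E11.5, 2054 to 3765 at E12.5, 183 to 1945 in XX, 1277 to 3077 in XY and 403 to 1273 in the interaction. The interaction median ran from 1.58 to 2.68. The cause of these shifts was not tested, beyond the fewer arrays in each fit.

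Whether the pool numbers pair the arrays is not known. Over 18 pairs, same-numbered arrays had correlations of their deviations from -0.4 to 0.23 (median 0.04). Over 36 pairs with different numbers these ran from -0.36 to 0.4 (median -0.03). With 3 pools per group, such values cannot decide the question. With the number as a replicate block, 16 mitosis genes were called at E12.5, 2 in XX, 4 in XY, 3 in the interaction and 0 at E11.5. Of the genes called without the block, it ended Bub1, Nusap1, Anln, Spc25 and Top2a at E12.5, Ttk and Incenp in XX, and all but Aurka in the interaction.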
